A study of Mus musculus with 4 samples.

Results

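The genes described here are 10 members of the fibroblast growth factor (FGF) pathway, namely the receptors *Fgfr1*, *Fgfr2*, *Fgfr3* and *Fgfrl1*, the ligands *Fgf1* and *Fgf2*, the adaptors *Frs2* and *Grb2*, the phosphatase gene *Ptpn11* and the heparan sulfate enzyme gene *Ndst1*. They were taken by symbol from a table of 56748 genes, and all 10 were present. RNA was sequenced from lenses of mice 10 to 12 days old, in 2 mutant and 2 control libraries. The mutant mice were Fsp1-cre;Pdgfrb+/D849V, that is, they carried Cre under the *Fsp1* (*S100a4*) promoter and 1 allele of *Pdgfrb* from which Cre induces a hyperactive receptor under the gene's own promoter. The labels give Fsp1-cre;Pdgfrb+/+ for both control libraries, whereas the methods describe control pools that also held mice without Cre, with or without the *D849V* allele. All mice were of an FVB/N line that carried a tdTomato reporter. Neither the Cre transgene nor the mutant allele is specific to the lens, and lenses of several mice were pooled for every library. Nothing in the labels ties the libraries to separate litters, so p-values measure the spread between pools.

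FGF signalling is the best known extracellular cue for lens growth. FGF ligands bind heparan sulfate and a receptor tyrosine kinase together, and in the lens a low dose favours proliferation of the epithelium while a higher dose drives epithelial cells to become fibre cells. The activated receptor phosphorylates the docking protein FRS2, which recruits GRB2 and the phosphatase SHP2 (the product of *Ptpn11*) and so feeds the Ras-ERK cascade. GRB2 and SHP2 also serve other receptor kinases, PDGFRβ among them. The comparison of the 2 genotypes therefore asks whether the transcripts of this shared machinery differed in lenses of the mutant genotype. Activity of PDGFRβ at this age was not tested here. The paper describes robust Cre reporter activity in lens epithelium at a later age, and it assumes that the mutant receptor is expressed once Cre is induced.

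Depth and composition were similar in all libraries. Between 18561682 and 18878768 reads could be recovered per library, of which crystallin genes took 58.6% to 62.9%. Expression was given as FPKM, fragments scaled to gene length and to a denominator of each library, so that levels can be compared between genes per length. The denominator was not the read total, since mutant replicate 1 had the most reads and the smallest denominator (17827973). Defining lens markers were abundant, with a mean FPKM of 113 for *Foxe3*, a transcription factor of lens epithelium, and of 70329 for *Cryaa*, which encodes an alpha crystallin. Of 13 lens fibre markers, *Lim2* was listed at 0 in every library, as were *Hba-a2* among the erythrocyte and *Lum* among the fibroblast markers. The 7 endothelium markers summed to 2.78 and 3.62 FPKM in mutant and to 4.43 and 4.70 in control libraries, the 6 pericyte markers to 4.47 and 5.77 against 6.31 and 7.05, and the 7 macrophage and immune markers to 1.73 and 1.92 against 0.583 and 0.788. Retina markers summed to between 0.924 and 3.18 FPKM, pigment cell markers to between 0.653 and 1.39, and erythrocyte markers to between 17.2 and 34.9. Fibroblast markers summed to 7.30 and 7.87 in mutant against 3.74 and 6.04 in control libraries. The fibroblast list includes *Pdgfrb*, the altered gene itself, so its sum is not a separate measure of fibroblasts. The part of these other cells in the values below was not tested, and in whole lenses fewer cells of a type cannot be told apart from less RNA per cell. The 8 lens epithelium markers summed to 149 and 176 FPKM in mutant and 168 and 171 in control libraries. The fibre markers summed to 237228 and 197570 against 204904 and 227974, so the groups overlapped in both sums. A sum follows its most abundant genes. In the limma fit described below, 2 of 12 fibre markers tested were lower and 0 higher at an unadjusted p under 0.05 (all genes 2.92% lower). Their log2 fold changes ran from -1.72 to 0.18, and 0 had an adjusted p under 0.05. At the same unadjusted p, 3 of 3 macrophage and immune markers and 2 of 4 fibroblast markers tested were higher and 0 lower. Over all 15997 genes tested, 542 were higher. Of the endothelium markers 1 of 7 and of the pericyte markers 1 of 5 tested were lower and 0 higher. The lens epithelium, retina, pigment cell and erythrocyte lists had 0 in either direction. No marker had an adjusted p under 0.05.

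The promoters of the 2 most abundant members, of the least abundant member and of *Ptpn11*, the member with the smallest p, are shown because the levels of these genes differed most or their difference between genotypes came nearest to the threshold. They are RefSeq windows of 300 bases on GRCm38.p6, from 250 bases before to 50 bases after a transcription start, 5′ to 3′ on the strand of the gene. Such windows were used for 7 of the 10 genes, which does not show that the other genes lack them. *Fgfr3* and *Grb2* have 2 each, and the first of *Fgfr3* is printed, while the second, at chr5:33722056-33722355, holds 30 CpG dinucleotides and 2 GC boxes. Capitals mark GC boxes (GGGCGG or its complement CCGCCC, as bound by SP1) and the ETS motif (CCGGAAGT or its complement ACTTCCGG, the kind of site bound by ETS factors downstream of ERK).
Fgfrl1, chr5:108693979-108694278, plus strand: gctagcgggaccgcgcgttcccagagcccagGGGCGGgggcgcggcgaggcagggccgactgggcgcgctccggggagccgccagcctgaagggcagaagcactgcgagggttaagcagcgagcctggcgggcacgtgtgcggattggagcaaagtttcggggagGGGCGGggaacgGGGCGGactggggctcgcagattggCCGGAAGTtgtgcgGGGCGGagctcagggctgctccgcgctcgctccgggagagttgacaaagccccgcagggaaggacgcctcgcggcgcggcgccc
Fgfr3, chr5:33721474-33721773, plus strand: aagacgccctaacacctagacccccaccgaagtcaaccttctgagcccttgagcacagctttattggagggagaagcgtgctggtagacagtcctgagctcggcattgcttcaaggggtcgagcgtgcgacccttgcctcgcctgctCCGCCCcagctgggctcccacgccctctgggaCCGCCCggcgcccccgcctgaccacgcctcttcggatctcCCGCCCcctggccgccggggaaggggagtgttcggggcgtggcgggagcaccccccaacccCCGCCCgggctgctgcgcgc
Ptpn11, chr5:121191348-121191647, minus strand: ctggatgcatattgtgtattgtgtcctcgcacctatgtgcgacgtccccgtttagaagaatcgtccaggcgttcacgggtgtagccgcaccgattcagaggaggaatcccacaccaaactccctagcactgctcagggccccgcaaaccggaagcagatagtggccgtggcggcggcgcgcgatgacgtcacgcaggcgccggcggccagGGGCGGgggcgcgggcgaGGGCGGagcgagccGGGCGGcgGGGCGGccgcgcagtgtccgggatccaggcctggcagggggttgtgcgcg
Fgf2, chr3:37348403-37348702, plus strand: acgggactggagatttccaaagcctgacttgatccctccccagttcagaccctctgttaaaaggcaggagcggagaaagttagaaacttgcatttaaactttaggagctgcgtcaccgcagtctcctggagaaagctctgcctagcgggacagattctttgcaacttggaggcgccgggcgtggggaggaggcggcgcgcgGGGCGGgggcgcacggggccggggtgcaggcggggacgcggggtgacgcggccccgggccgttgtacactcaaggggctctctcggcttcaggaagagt

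These 4 windows held 37 (*Fgfrl1*), 26 (*Fgfr3*), 37 (*Ptpn11*) and 24 (*Fgf2*) CpG dinucleotides, where the median of all 32851 RefSeq windows was 7. GC boxes were found 4 times in each of the first 3 windows and once in that of *Fgf2*, and 35.7% of all windows hold at least 1. The ETS motif was found in the windows of *Fgfrl1* and *Frs2*, and in 3.89% of all windows. The TATA box (TATAAA, 13.6% of all windows) was found in 1 of the 2 windows of *Grb2*. The AP-1 motif (TGACTCA, 5.20% of all windows) was in none of the 9 windows used, which exclude *Fgf1*, *Ndst1* and *Fgfr1*. All motifs were searched on both strands, none of the motifs marked overlaps another, and a match is a description of these letters only.

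Among the receptors, the decoy-like *Fgfrl1* was the most abundant transcript per length. In reads, which are not scaled to length, *Fgfr3* was ahead, with 13653 in all against 8036 for *Fgfrl1*. *Fgfrl1* (ENSMUSG00000008090, chromosome 5, 108840248 to 108854790, mm39) encodes a receptor that binds ligand and heparin but lacks the tyrosine kinase domain. Its FPKM was 38.7 and 37.8 in mutant replicates 1 and 2 and 36.7 and 40.4 in control replicates 1 and 2. The control libraries enclosed the mutant libraries, and the gene lay above 97.0% of the genes tested.

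*Fgfr3* (ENSMUSG00000054252, chromosome 5, 33879018 to 33894412) was the leading receptor with a kinase. Its FPKM was 25.0 and 25.1 in the mutant libraries and 26.3 and 24.9 in the control libraries, from 3192 to 3661 reads per library. *Fgfr2* (ENSMUSG00000030849, chromosome 7, 129764181 to 132725079) had 5.69 and 4.80 in mutant and 5.35 and 5.08 in control libraries. *Fgfr1* (ENSMUSG00000031565, chromosome 8, 26003670 to 26065734) had 4.25 and 4.30 against 4.45 and 3.90. All 3 receptors had overlapping groups. In each of the 4 libraries the order was *Fgfrl1*, *Fgfr3*, *Fgfr2*, *Fgfr1*, and the ranges of neighbours over the libraries did not overlap. *Fgfr2* exceeded *Fgfr1* by 1.12 to 1.34 times within a library, so this was the closest step among the receptors. *Fgfr3* exceeded *Fgfr1* by 5.84 to 6.38 times.

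*Fgfr4*, the remaining receptor with a kinase, was close to the limit of detection. It had 2 reads in each mutant library and 0 reads in each control library, where a count of 0 allows up to 3 reads, or 0.0436 and 0.0459 FPKM in control replicates 1 and 2. No difference between genotypes could be detected at this depth. Of the summed FPKM of *Fgfr1* to *Fgfr4*, *Fgfr3* took 71.5% and 73.3% in mutant and 72.9% and 73.5% in control libraries. *Fgfr2* took 16.3% and 14.0% against 14.8% and 15.0%, and *Fgfr1* 12.1% and 12.6% against 12.3% and 11.5%. The mean share of *Fgfr3* was 72.4% ± 1.31 (SD, n = 2) in mutant and 73.2% ± 0.438 (SD, n = 2) in control lenses, a difference smaller than the SD of the mutant libraries (two-sided exact permutation p = 0.667, where 2 against 2 libraries cannot give less than 0.333). Leaving out single libraries moved this difference of -0.75 percentage points to between -1.67 and 0.18. Of the recovered reads of these receptor genes, which are not scaled to length, *Fgfr3* took 64.0% to 66.2% in a library.

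**Figure D1:**
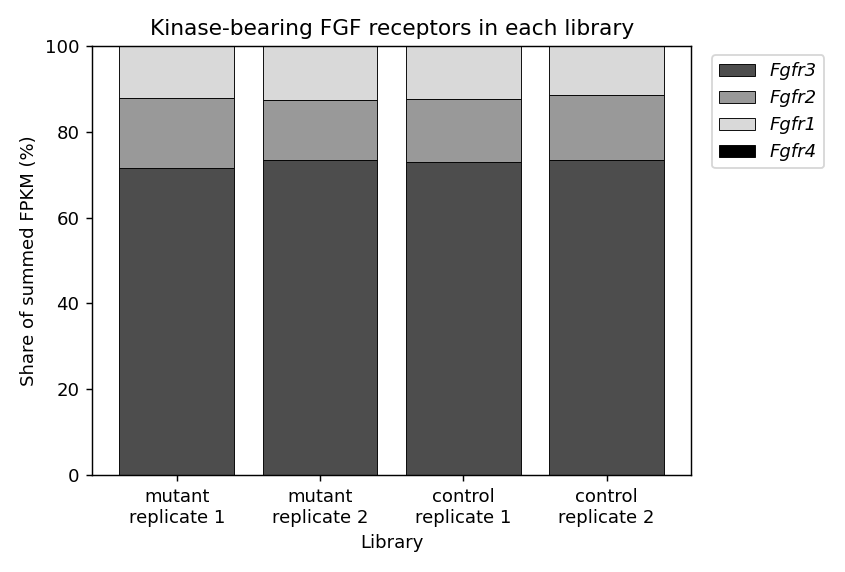
Share of each kinase-bearing FGF receptor gene in the summed FPKM of *Fgfr1* to *Fgfr4* (y axis, percent) in the 4 libraries (x axis, 1 bar each). *Fgfr3* takes 71.5% to 73.5% of every bar, and *Fgfr4*, at 0.0905% or less, is too thin to see.

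The ligands were far below their receptors. *Fgf1* (ENSMUSG00000036585, chromosome 18, 38971726 to 39062525), the acidic FGF that binds all FGF receptors, reached 0.349 and 0.720 FPKM in mutant against 0.414 and 0.238 in control libraries, from 34, 77, 44 and 24 reads. Mutant replicate 2 was the highest and control replicate 2 the lowest library, and the groups overlapped. The exact 95% Poisson interval of mutant replicate 2 (0.568 to 0.900 FPKM, counting error only) lay above those of the other 3 libraries, so the 2 mutant pools differed from each other by more than counting error. *Fgf2* (ENSMUSG00000037225, chromosome 3, 37402495 to 37464257), the basic FGF, had 16 and 11 reads in mutant and 10 and 9 reads in control libraries, or FPKM of 0.132 and 0.0828 against 0.0758 and 0.0720. Both mutant libraries lay above both controls, but the Poisson intervals of all 4 libraries overlapped, from 0.0756 to 0.215 FPKM in mutant replicate 1 and from 0.0329 to 0.137 in control replicate 2. *Fgf2* overlaps *Nudt6* on the opposite strand, which had 12 and 22 mutant and 16 and 15 control reads, and 8.50% of the 31-base words of *Fgf2* transcripts occur in those of *Nudt6*. The strand setting of the counting is not given in the sources used here, so the few reads of these genes are uncertain one by one.

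The other secreted ligands added little. Of 16 further *Fgf* genes, 11 were listed at 0 in every library, and none reached the mean of 0.1 FPKM needed for testing. The 3 highest were *Fgf18*, *Fgf17* and *Fgf15*, with at most 4 reads in any library. Of the intracellular FGF homologues, which act on ion channels and are not secreted, *Fgf12* had 5.40 and 7.86 FPKM in mutant and 3.90 and 6.04 in control libraries, *Fgf11* had 1.91 to 2.21 and *Fgf13* 0.0635 to 0.282. *Fgf12* was thus higher per length than either ligand that binds the receptors, and its groups overlapped.

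Among the genes that act below the receptor, *Grb2*, the SH2 and SH3 adaptor that brings SOS to the membrane, was the most abundant member per length. *Grb2* (ENSMUSG00000059923, chromosome 11, 115534871 to 115599423) reached 11.2 and 9.41 FPKM in mutant against 11.5 and 11.1 in control libraries. *Ptpn11* (ENSMUSG00000043733, chromosome 5, 121268596 to 121329460) had 6.45 and 8.32 against 9.47 and 9.02. *Frs2* (ENSMUSG00000020170, chromosome 10, 116905332 to 116984439), the docking protein dedicated to FGF and neurotrophin receptors, had 1.46 and 1.34 against 1.16 and 1.38. *Grb2* exceeded *Ptpn11* in each library, by 1.13 to 1.74 times, but their ranges over the libraries overlapped, which made them the sole neighbours in the order of the 10 genes that did. *Grb2* exceeded *Frs2* by 7.03 to 9.85 times.

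*Ndst1* (ENSMUSG00000054008, chromosome 18, 60817566 to 60881722) encodes the N-deacetylase and N-sulfotransferase that starts the sulfation of heparan sulfate, on which FGF binding depends. It had FPKM of 1.67 and 2.94 in mutant and of 3.38 and 2.73 in control libraries. Mutant replicate 1 was the lowest by far, whereas mutant replicate 2 lay between the 2 controls. *Ndst1* was the most abundant of the *Ndst* genes, ahead of *Ndst2* with 0.764 to 1.21 FPKM, while *Ndst3* and *Ndst4* had at most 8 reads in a library. *Ndst1* overlaps *Rps14* on the opposite strand, which had 129 to 150 FPKM, but less than 0.1% of the words of *Ndst1* transcripts (0.0964%) occurred in transcripts of any other gene.

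**Figure D2:**
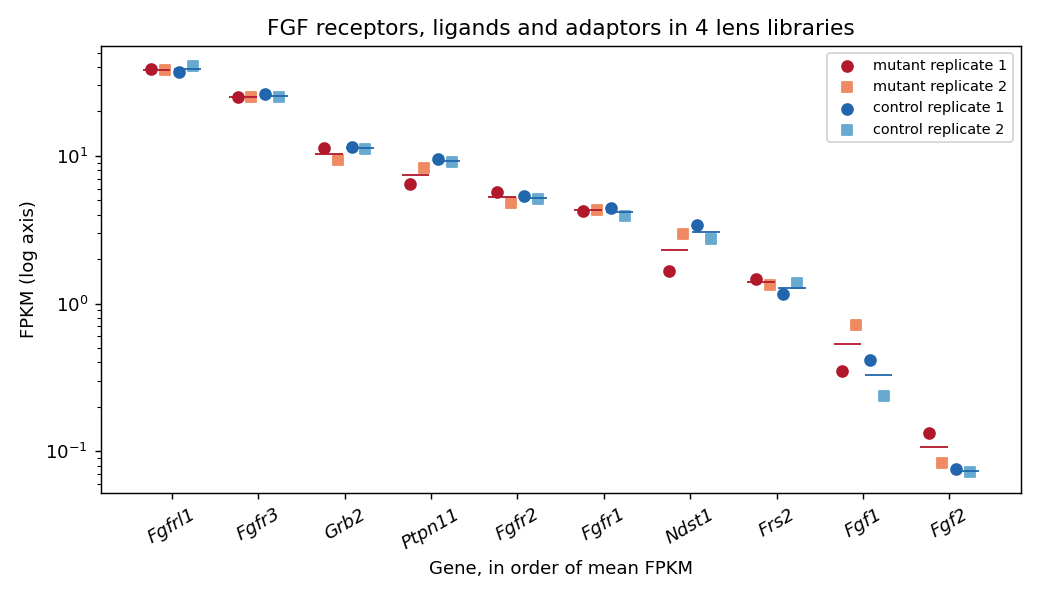
FPKM (y axis, log scale) of the 10 FGF receptor, ligand and adaptor genes (x axis, by mean FPKM) in the 2 mutant and 2 control libraries (points), with horizontal lines at the group means. The genes span from 38.4 for *Fgfrl1* to 0.0907 for *Fgf2*, a ratio of 423, and the low point of mutant replicate 1 stands out for *Ndst1* and *Ptpn11*.

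Parts of some members occur in transcripts of other genes, where reads could be assigned either way. Of the 31-base words of their transcripts, 14.9% (*Fgfr3*), 12.1% (*Grb2*), 11.8% (*Fgf2*) and at most 3.84% (*Fgfr1*, *Fgfr2*, *Frs2*, *Ptpn11*, *Fgf1* and *Fgfrl1*) also occurred in transcripts of other genes on either strand of the GRCm38 annotation. For *Fgfr3* most of these lie in *G630022F23Rik*, an overlapping gene on the other strand with 37 to 45 reads per library. For *Grb2* they all lie in *Gm12791*, a pseudogene elsewhere in the genome. *Gm16159* overlaps *Fgfr1* on the other strand with at most 12 reads, and *Gm11702*, a processed pseudogene of 69 bases, lies within *Grb2* with 19 to 27 reads. *Arhgap26* and *Gm5820* overlap *Fgf1* on the other strand with at most 5 reads in a library, and *Gm42930* lies over *Ptpn11* on the same strand with at most 3. *Gm42923*, *Gm43439* and *Fgf2os* overlap *Fgf2* and had at most 2 reads. The annotated span of *Fgfr2* is 2961 kb and covers 71 other genes, while its exons total 10328 bases, and 2.69% of its words occur in *Ctbp2*.

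To ask whether these transcripts differed between genotypes, the 15997 genes whose mean FPKM reached 0.1 were fitted by limma, on log2(FPKM + 0.1), and p-values were adjusted by Benjamini and Hochberg's method. Of the 10 members, 9 were tested, and *Fgf2* lay below the filter. None of the 9 had an adjusted p under 0.05, and none had an unadjusted p under 0.05. Over all genes tested these shares were 0.0375% and 6.31%. Of the members, 4 had a log2 fold change above 0 and 5 below 0, with a median of -0.01 where the median of all genes tested was 0.0041. The pseudocount draws the fold changes of scarce transcripts towards 0.

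The intervals were narrowest for *Fgfr3* and *Fgfrl1*. *Fgfr3* had 25.1 ± 0.0632 FPKM (SD, n = 2) in mutant and 25.6 ± 1.01 in control lenses. Its log2 fold change was -0.03, with a standard error of 0.09 and a 95% interval from -0.25 to 0.19 (limma adjusted p = 0.955). *Fgfrl1* had 38.3 ± 0.616 against 38.5 ± 2.62, a log2 fold change of -0.01 with an interval from -0.25 to 0.23 (limma adjusted p = 0.991). *Fgfr1* and *Fgfr2* had log2 fold changes of 0.04 (-0.27 to 0.34) and 0.0031 (-0.32 to 0.33). All 4 differences were smaller than the SD between the pools of at least 1 group. The sign of each receptor's difference turned in some of the other settings tried, among them leaving out control replicate 2 for *Fgfr1*, *Fgfr2* and *Fgfrl1* and control replicate 1 for *Fgfr3*, so no direction is given. These data are compatible with changes in receptor transcripts of up to about the limits of these intervals, which for *Fgfr3* correspond to 0.841 to 1.14 times the control level.

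The adaptors *Grb2* and *Frs2* had log2 fold changes of -0.13 (95% interval -0.44 to 0.17, limma adjusted p = 0.820) and 0.13 (-0.29 to 0.54, limma adjusted p = 0.877). *Fgf1* had 0.535 ± 0.262 FPKM (SD, n = 2) in mutant and 0.326 ± 0.124 in control lenses, with the widest interval of the members (log2 fold change 0.54, -0.50 to 1.59, limma adjusted p = 0.811). When single libraries were left out, *Fgf1* had log2 fold changes between 0.11 and 0.98, with the lowest value without mutant replicate 2. When no filter on FPKM was used, *Fgf2* had a log2 fold change of 0.25 (-0.61 to 1.10, limma adjusted p = 0.871).

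**Figure D3:**
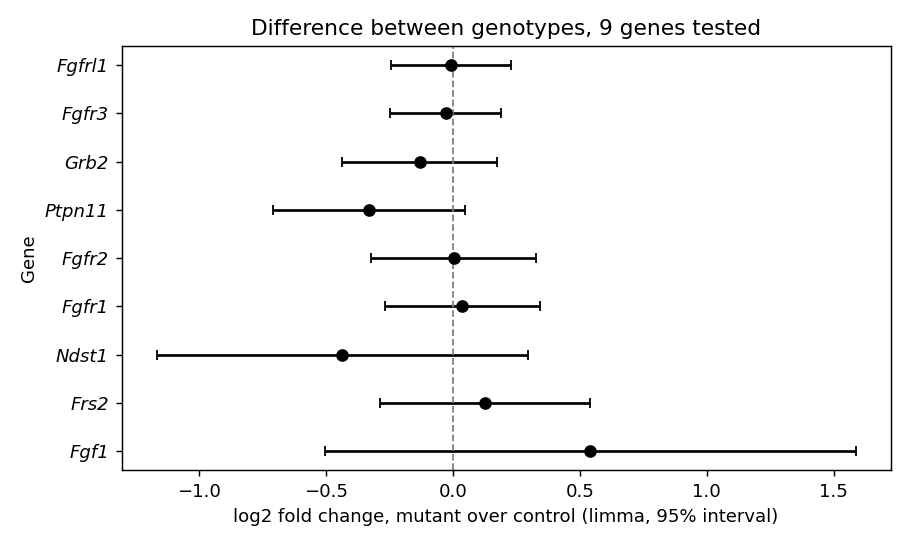
Log2 fold change of mutant over control lenses (x axis) for the 9 members tested (y axis, by mean FPKM from the top), as estimates of limma's fit (points) with 95% intervals (bars). Every interval includes 0. The narrowest is that of *Fgfr3* (-0.25 to 0.19) and the widest that of *Fgf1* (-0.50 to 1.59).

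*Ptpn11* was the tested member with the smallest p and the sole one whose groups did not overlap. Its FPKM was 7.38 ± 1.32 (SD, n = 2) in mutant and 9.24 ± 0.314 in control lenses, that is 79.9% of the control level. The log2 fold change was -0.33 (SE 0.15, 95% interval -0.71 to 0.05, unadjusted p = 0.0738, limma adjusted p = 0.809). Both mutant pools lay fully below both controls in 18.3% of all genes tested and fully above them in 18.2%, so 1 such gene among 9 is no more than the background share. *Ndst1* had 2.30 ± 0.898 against 3.05 ± 0.462 FPKM and a log2 fold change of -0.44 (SE 0.29, 95% interval -1.17 to 0.29, limma adjusted p = 0.811).

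For both genes the difference rested largely on mutant replicate 1. Without that library the log2 fold change was -0.15 for *Ptpn11* and -0.05 for *Ndst1*, and without mutant replicate 2 it was -0.51 and -0.83. When limma's voom was run on the recovered reads, *Ptpn11* and *Ndst1* had unadjusted p of 0.0115 and 0.0205, as did 7.43% of all genes under 0.05, and adjusted p of 0.488 and 0.572. Voom gave an adjusted p under 0.05 to 0.0875% of all genes. Over all the other settings the adjusted p lay between 0.488 and 0.978 for *Ptpn11* and between 0.545 and 0.978 for *Ndst1*. The 2 mutant values of *Ndst1* differed by more than counting error, with exact 95% Poisson intervals of 1.46 to 1.89 and 2.68 to 3.21 FPKM. Those of *Ptpn11*, 6.02 to 6.89 and 7.86 to 8.80, were apart as well.

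Mutant replicate 1 also stood apart by gene length. Protein-coding genes whose mean FPKM reached 1 were divided by length into 5 bins of like size, and log2(FPKM + 0.1) in mutant replicate 1 was set against the mean of the other 3 libraries. The median difference fell from 0.11 in the bin of the shortest genes to -0.08 in that of the longest. Set against the others in the same way, mutant replicate 2 went from 0.0026 to -0.00098. Control replicate 1 rose from -0.06 to 0.04 and control replicate 2 from -0.04 to 0.04. Since each library is measured against the others, these rises are not independent of the fall in mutant replicate 1. *Ptpn11* (7492 bases) and *Ndst1* (8279 bases) are in the bin of the longest genes, and their values in mutant replicate 1 were -0.46 and -0.81 on this scale. Of the 1508 genes of this bin, 3.51% had a lower value than *Ptpn11* and 0.199% a lower value than *Ndst1*. The members *Fgfr1*, *Fgfr2* and *Frs2*, in the same bin, had 0.01, 0.16 and 0.16. What part gene length has in the values of mutant replicate 1 was not tested beyond the removal of its trend. With that trend removed from each library, a setting chosen after the data were seen, the log2 fold change was -0.30 for *Ptpn11* (limma adjusted p = 0.817) and -0.39 for *Ndst1* (limma adjusted p = 0.820).

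**Figure D4:**
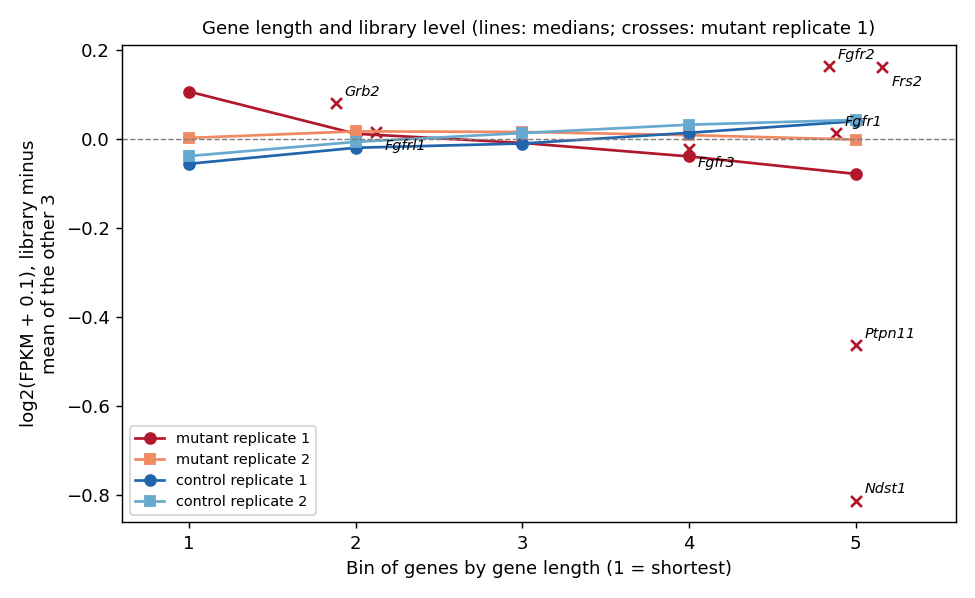
Difference in log2(FPKM + 0.1) between a library and the mean of the other 3 (y axis) by bin of gene length (x axis), with medians over protein-coding genes as lines and 8 members in mutant replicate 1 as crosses. The line of mutant replicate 1 falls from 0.11 to -0.08, and in the last bin the members range from -0.81 (*Ndst1*) and -0.46 (*Ptpn11*) to 0.16 (*Fgfr2* and *Frs2*).

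*Xist* transcripts were unequal between the pools, with 7.62 and 13.1 FPKM in mutant libraries against 15.6 and 5.56 in controls, so that mutant replicate 1 and control replicate 2 held less than the others. Within these pairs, mutant minus control was -0.48 (low *Xist*) and -0.18 (high *Xist*) for *Ptpn11*, and -0.68 and -0.20 for *Ndst1*, in log2(FPKM + 0.1). *Fgf1* differed by 0.41 and 0.67. *Fgfr2* changed sign between the pairs, with 0.16 and -0.16, and *Fgfr1* likewise, with 0.12 and -0.05. So did *Fgfr3* (0.0081 and -0.07), *Fgfrl1* (-0.06 and 0.04) and *Grb2* (0.02 and -0.28). With a covariate for *Xist* level, *Ptpn11* had an unadjusted p of 0.0478 (limma adjusted p = 0.720).

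The wider pathway was read from 9 lists of 118 genes, 116 of them in the table and 87 tested. None of the 87 had an adjusted p under 0.05. At an unadjusted p under 0.05 stood 4 genes, all lower in mutant lenses, where 2.92% of all genes tested were lower at that threshold. They were *Etv5*, *Spry2*, *Dusp4* and *Sos2*, the last 2 named after their values were seen. Among the other settings, the fit of FPKM as deposited repeats the main fit, because the scaling factors were equal. The unadjusted p of *Etv5* and *Spry2* was under 0.05 in all 16 other settings, whereas that of *Dusp4* was not in 6 of them and that of *Sos2* not in 9, each fit that left out a library included. The Ras-ERK cascade, the kinases and GTPases between GRB2 and the nucleus, had 0 of 14 tested genes under that p, with 7 genes above and 7 below a log2 fold change of 0 and a median of 0.00059. The kinase genes *Mapk3* (31.4 to 33.2 FPKM) and *Map2k2* (14.3 to 15.2), its most abundant genes, had log2 fold changes of -0.03 and 0.03.

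ERK feedback and target genes are induced when the cascade is active. Of 13 tested, 3 were lower and 0 higher at an unadjusted p under 0.05 in limma's fit. Over all 15997 genes tested, 467 were lower and 542 higher at that threshold. The list was chosen with earlier results of these data known, and activity of the cascade was not tested. The median log2 fold change of the list was -0.08. This median lay between -0.32, among genes with a mean FPKM of 1 or more, and -0.0013, without control replicate 1, in the other settings. *Etv5*, an ETS factor and a well-known FGF target, reached 4.48 and 5.04 FPKM in mutant against 7.72 and 7.66 in control libraries (log2 fold change -0.68, SE 0.11, limma adjusted p = 0.344). Voom gave it an adjusted p of 0.0303, and the range over the other settings went up to 0.896. *Spry2*, a feedback inhibitor of receptor kinases, had 4.89 and 4.70 against 6.55 and 6.84 (log2 fold change -0.47, SE 0.10, limma adjusted p = 0.580). For both genes the 2 mutant pools lay close together and below both controls. Groups were apart in that direction in 18.3% of all genes tested. *Spry1* had 5.69 and 5.04 against 5.27 and 6.09, with overlapping groups.

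Other docking and adaptor genes had 1 of 13 lower (*Sos2*, log2 fold change -0.35) and 0 higher at an unadjusted p under 0.05. Over all genes tested 2.92% were lower at that threshold. The median log2 fold change of these adaptors was 0.0083. *Shc1*, an adaptor that links receptor kinases to GRB2, was by far the most abundant, with 57.6 and 59.7 FPKM in mutant against 50.3 and 54.7 in control libraries (log2 fold change 0.16, limma adjusted p = 0.811). Both mutant libraries lay above both controls, as in 18.2% of all genes tested. Per length, *Shc1* exceeded *Frs2* by 39.6 to 44.6 times. *Crk* had 12.3 to 12.5 and *Crkl* 4.97 to 6.42 FPKM. Of the co-receptor and binding protein genes, none of 4 tested passed an unadjusted p of 0.05 (median log2 fold change -0.19). *Flrt2* had 4.29 to 5.82, *Fgfbp3* 1.22 to 1.99 and *Flrt3* 0.530 to 1.14 FPKM. None of the 3 intracellular homologues passed it either (median 0.03).

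Heparan sulfate genes gave 0 of 24 (synthesis and editing) and 0 of 12 (core proteins) tested genes with an unadjusted p under 0.05, with median log2 fold changes of 0.0035 and -0.07. *B3gat3*, *Slc35b2* and *Ext1*, which act in linker synthesis, sulfate donor transport and chain polymerisation, had log2 fold changes of -0.0025, 0.04 and 0.0021. *Hspg2*, which encodes perlecan, a heparan sulfate proteoglycan of the lens capsule, had 24.9 and 36.2 FPKM in mutant against 45.7 and 33.3 in control libraries (log2 fold change -0.38, limma adjusted p = 0.811). As for *Ndst1*, mutant replicate 1 was the lowest library and mutant replicate 2 lay between the controls. The syndecan genes *Sdc2* and *Sdc1* had log2 fold changes of -0.06 and -0.02.

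The PDGF receptors were below *Fgfr3*. *Pdgfrb* had 1.79 to 2.36 FPKM, with a log2 fold change of 0.16 (limma adjusted p = 0.837), and *Pdgfra*, another PDGF receptor gene, had 4.02 and 5.25 in mutant against 5.86 and 5.32 in control libraries (log2 fold change -0.28, limma adjusted p = 0.811). Within a library, *Fgfr3* exceeded *Pdgfra* by 4.49 to 6.22 times and *Pdgfrb* by 10.6 to 13.9 times per length. *Pdgfa* had 1.92 to 2.64 FPKM. None of the 4 PDGF genes tested had an unadjusted p under 0.05, with a median log2 fold change of -0.25. *S100a4*, whose promoter drives Cre, had 3.84 and 4.37 FPKM in mutant and 2.91 and 1.21 in control libraries, from 13 to 50 reads (log2 fold change 1.08, limma adjusted p = 0.783).

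**Figure D5:**
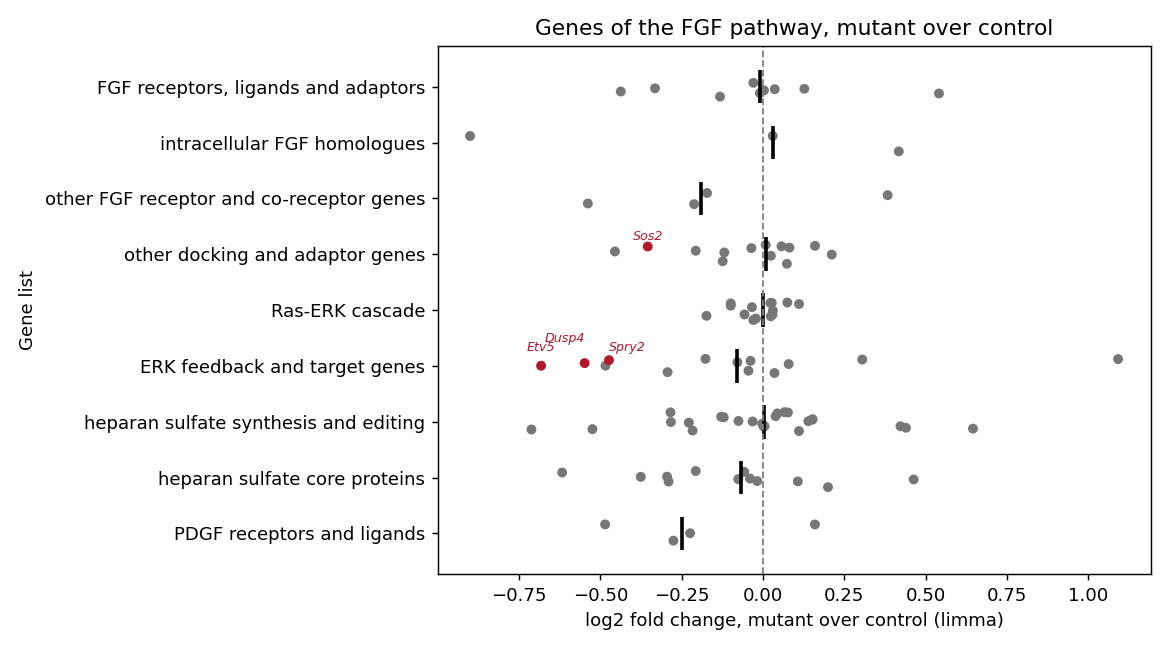
Log2 fold change of mutant over control lenses (x axis, limma) for each tested gene (points) of the members and of 8 pathway lists (y axis), with the median of each list as a black bar. Genes with an unadjusted p under 0.05 are red and named, and all 4 of them (*Etv5*, *Spry2*, *Dusp4* and *Sos2*) lie below 0.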

How the data were processed

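The authors deposited FPKM of 56748 genes in 4 libraries. Their sequencing provider had aligned reads with HISAT2 2.0.5 and counted them per gene with featureCounts 1.5.0-p3, and the submitters' processing notes name the build mm39. Strand setting, annotation release and treatment of multi-mapping reads are not given in the sources used here. Deposited FPKM multiplied by gene length were whole multiples of 1 step in 100% of values above 0 (tolerance 0.01 reads), which gave the reads. All genes whose mean FPKM reached 0.1 were fitted with limma 3.58.1 (R 4.3.3, lmFit, eBayes with trend) on log2(FPKM + 0.1) after median ratio scaling, whose factors were equal, with Benjamini-Hochberg adjustment over all of them. In a simulation of this comparison on 15901 genes, 200 were changed by 2 on the log2 scale. Limma called 94.0% of them and voom 98.5%, with 50 and 1 calls among unchanged genes. The changed genes had a mean FPKM of at least 1, and the simulation used a fixed dispersion and no length trend. It does not show how often differences as small as those of the members would be called. Voom on recovered reads, other pseudocounts, filters and scalings, a replicate block, an *Xist* covariate and each library left out were alternatives. Of the scalings, FPKM as deposited gave the main fit again, since the factors were equal. Shared words were counted in GENCODE M21 transcripts. Python 3.11.15, scipy 1.17.1 and matplotlib 3.10.9 were used.

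The members and lists were chosen with earlier results of these data known. Named genes are all members, the 3 most abundant genes of each list, genes with an adjusted p under 0.05, genes that overlap a member (for *Fgfr2* their number only), *Pdgfrb*, *S100a4* and, of the marker lists, a few abundant genes and those at 0. *Fgfr4*, *Ndst2*, *Ndst3*, *Ndst4*, *Ctbp2*, *Gm12791*, *Dusp4* and *Sos2* lie outside this rule and were named after their values were seen, as were *Etv1* and *Etv4*. The symbols *Anos1* and *Spry3* of the lists matched no row. 1 gene that this rule names is not reported here. No protein sequences were used here.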

Additional observations from a re-analysis of the deposited data

How the results depend on the processing

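With 2 pools per group, no member reached an adjusted p under 0.05 in any of the 16 other settings, and the limits of the intervals set what could be seen. The setting of FPKM as deposited could not differ from the main fit. *Fgf1* and *Fgf2* rest on 179 and 46 reads in all. The sign turned for receptors with differences near 0. *Fgfr1* had -0.0053 when scaled by summed FPKM and -0.056 to 0.13 with a library left out (-0.056 without control replicate 2). *Fgfr2* had -0.039 when scaled by summed FPKM, -0.0090 when scaled by reads without crystallins, and -0.12 to 0.12 with a library left out (-0.12 without mutant replicate 1, -0.034 without control replicate 2). *Fgfr3* had 0.0041 with the gene length trend removed and -0.070 to 0.011 with a library left out (0.011 without control replicate 1). *Fgfrl1* had -0.079 to 0.060 with a library left out (0.0070 without mutant replicate 2, 0.060 without control replicate 2). The cause was not tested. The other 5 members tested kept their sign in all settings that included them.

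Over all genes the number with an adjusted p under 0.05 was 6. It was 2 with a pseudocount of 1 or 0.01, with a mean FPKM of at least 1 or with limma without a trend, 1 without a filter or with the *Xist* covariate, 14 with voom, and 0 in each fit that left out a library, where the lone library of a group is assumed to vary like the other group. Those fits gave 747 to 1425 genes with an unadjusted p under 0.05, against 1009 with all libraries, 617 with a mean FPKM of at least 1 and 660 when scaled by summed FPKM. Members with an unadjusted p under 0.05 numbered 0, against 2 with voom (*Ptpn11* and *Ndst1*), 1 with the *Xist* covariate (*Ptpn11*), and 0 to 2 when a library was left out, the 2 being the same genes without mutant replicate 2. Of the 87 pathway genes tested 4 had such a p (all genes 6.31%). There were 2 when scaled by summed FPKM (2.30%, all genes 4.12%), 8 with limma without a trend (9.20%, all genes 5.93%), 13 with voom (14.9%, all genes 7.43%) and 2 to 6 when a library was left out (all genes 4.66% to 8.91%). Voom gave 1 of them, *Etv5*, an adjusted p under 0.05, where the other settings gave 0. The median log2 fold changes of the lists ranged over the settings from -0.44 to 0.13 (co-receptors, 0.13 without mutant replicate 1), -0.32 to -0.0013 (ERK feedback), -0.29 to -0.13 (PDGF), -0.23 to -0.01 (core proteins), -0.09 to 0.0079 (synthesis), -0.07 to 0.22 (intracellular), -0.08 to 0.03 (adaptors) and -0.04 to 0.05 (Ras-ERK). The difference in the share of *Fgfr3* was -0.75 percentage points, and -1.67 to 0.18 with a library left out.

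With the replicate number as a block in a paired fit, 3 genes had an adjusted p under 0.05, and no member did. The labels give no basis for this pairing, and same-numbered libraries did not deviate together (correlation of deviations over genes -0.0051).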

Other observations

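The *Etv* genes, ETS factors known as FGF targets, had differences of unlike sign, none past an adjusted p of 0.05 in limma's fit of FPKM, while voom gave *Etv5* 0.0303. *Etv5* had 4.76 ± 0.394 FPKM (SD, n = 2) in mutant and 7.69 ± 0.0462 in control lenses, whereas *Etv4* had 0.253 and 0.444 in mutant and 0.149 and 0.0699 in control libraries, from 14, 27, 9 and 4 reads. Its log2 fold change was 1.09 (95% interval -0.05 to 2.24, limma adjusted p = 0.805). *Etv1* had 0.346 and 0.488 against 0.472 and 0.388 FPKM, with overlapping groups. Whether the differences of *Etv4* and *Etv5* differ from each other was not tested.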
